A study of Mus musculus with 6 samples.

Results

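Feedback inhibitors of the mitogen-activated protein (MAP) kinases were followed in intestinal stem cell organoids that overexpressed the circular RNA circEZH2_005. The 10 genes were named by family: the MAP kinase phosphatases Dusp1, Dusp4, Dusp5, Dusp6 and Dusp10, the Sprouty genes Spry1, Spry2 and Spry4, and the Sprouty-related genes Spred1 and Spred2. All 10 were found by symbol among the 28752 genes of the deposited table, and all 10 passed the filter on low counts. RNA sequencing had compared 3 vector samples, labelled WT, with 3 samples labelled as overexpressing circEZH2_005 from an adenovirus. All 6 came from Lgr5+ intestinal stem cells of Lgr5-GFP mice grown as organoids, and all 6 had been exposed to hypoxia/reoxygenation (H/R), with 4 h at 2% O2. The labels put the infection 72 h before H/R. They do not say what the vector carried, nor whether the samples came from separate animals or cultures, so the p-values below measure only the spread between these samples, which may be technical. No normoxic sample was analysed here.

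MAP kinase cascades carry signals from growth factor receptors and from stress to the nucleus through the kinases ERK, JNK and p38. The DUSP phosphatases switch these kinases off by removing phosphate from the threonine and the tyrosine of their activation loop, and Sprouty and Spred proteins act further up, between the receptor, Ras and Raf. Many of these genes are themselves switched on by ERK, which makes them feedback inhibitors, and in the crypt epidermal growth factor signalling through ERK is a main drive to stem cell proliferation.

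The promoters of the genes that rose are shown first. The motif to mark was chosen separately for each gene. They are the 250 bases before the RefSeq start (GRCm38.p6), read here for 8 of the 10 genes. Those shown are printed 5′ to 3′ on the gene's own strand. Capitals mark the motif named for each gene: for Dusp1 the cAMP response element (CRE, TGACGTCA), for Dusp6 the ETS core (GGAAG, here read on the other strand as CTTCC), for Dusp10 the CCAAT box (or its reverse, ATTGG), and for Dusp5, shown as a relative with no call, the CArG boxes bound by serum response factor.
Dusp1 promoter, chr17:26508473-26508722, minus strand: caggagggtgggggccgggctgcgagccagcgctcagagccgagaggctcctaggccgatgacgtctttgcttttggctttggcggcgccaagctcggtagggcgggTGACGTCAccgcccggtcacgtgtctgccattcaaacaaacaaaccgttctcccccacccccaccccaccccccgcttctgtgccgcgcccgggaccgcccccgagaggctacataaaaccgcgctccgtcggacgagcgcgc
Dusp6 promoter, chr10:99262981-99263230, plus strand: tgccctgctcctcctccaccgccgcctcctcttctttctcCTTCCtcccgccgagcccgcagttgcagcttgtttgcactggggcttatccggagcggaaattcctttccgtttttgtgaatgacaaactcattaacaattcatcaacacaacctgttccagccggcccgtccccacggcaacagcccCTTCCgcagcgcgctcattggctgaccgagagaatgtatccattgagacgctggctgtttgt
Dusp10 promoter, chr1:184034131-184034380, plus strand: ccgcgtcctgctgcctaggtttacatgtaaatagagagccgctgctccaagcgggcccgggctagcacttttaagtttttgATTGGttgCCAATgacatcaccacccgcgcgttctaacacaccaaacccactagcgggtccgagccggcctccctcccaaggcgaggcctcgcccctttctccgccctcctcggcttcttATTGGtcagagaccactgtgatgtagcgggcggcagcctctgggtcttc
Dusp5 promoter, chr19:53528895-53529144, plus strand: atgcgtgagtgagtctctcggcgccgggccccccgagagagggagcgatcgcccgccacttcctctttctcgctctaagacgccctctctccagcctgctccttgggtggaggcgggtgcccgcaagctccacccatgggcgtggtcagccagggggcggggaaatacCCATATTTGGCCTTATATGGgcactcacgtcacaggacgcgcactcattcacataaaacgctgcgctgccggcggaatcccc

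Motifs were searched on both strands. The CRE of Dusp1 began 143 bases before the start, and 1.55% of 32851 promoters of the same length held such an element. The ETS cores of Dusp6 began 210 and 62 bases before the start, but 64.1% of all promoters held this short motif. Among the 8 promoters, Dusp5 and Spred1 held 1 each and Spred2 held 5, and these are not marked. The CCAAT boxes of Dusp10 began 169, 161 and 49 bases before the start, against 33.8% of all promoters with at least 1. Its window held 0 matches to the CRE, the CArG box and the ETS core. Unmarked CCAAT boxes also began 46 bases before the start of Dusp6 and 244 before that of Spry1. The CArG boxes of Dusp5 began 82 and 72 bases before the start and lay side by side, and 1.47% of promoters held a CArG box. The AP-1 site TGANTCA was found in 0 of the 8 promoters and in 6.75% of all promoters. These matches describe the letters only, and binding was not measured in this experiment. GENCODE M21 starts the Dusp5 gene a little further upstream than RefSeq does, and the Dusp10 gene far upstream, at 184013302, so that the printed Dusp10 window lies inside its annotated interval. That window also overlaps 1700056E22Rik on the other strand (184033030 to 184034301).

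AU-rich elements in the 3′ end of a transcript are known to speed its decay. The 3′ untranslated region of Dusp1 in GENCODE M21 (690 nt) held 4 AUUUA pentamers, or 5.80 per kb, the highest density among the 10 genes. Dusp10 held 3 in 1113 nt, or 2.70 per kb, and Dusp6 held 1 in 1189 nt, or 0.841 per kb, beside a median of 1.32 per kb over 19413 regions. The uncalled genes ran from 0.902 per kb in Dusp5 to 2.77 per kb in Spred1, which lay above Dusp10. Of the uncalled genes only Dusp5 lay under the median, so a density above it did not mark the genes that rose. The longer AU-rich nonamer, UUAUUUA followed by 2 bases that are each U or A, occurred at 2 sites in Dusp1, at 1 site in Dusp10 and in 0 of the other 8 genes, and 16.0% of all regions held it. The 3 sites are printed below as RNA (GRCm38) with the nonamer in capitals. Each lies in the last, untranslated stretch of its transcript.
Dusp1, chr17:26505871-26505897, minus strand: uuuuuaccuUUAUUUAUUuuuguguag
Dusp1, chr17:26506160-26506186, minus strand: agcugguccUUAUUUAUUuaacacccc
Dusp10, chr1:184075520-184075546, plus strand: aacaaaaauUUAUUUAAAaaauauuuu

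The libraries held between 71506487 and 79919893 counts, and counts scaled to a common library size are given as CPM. Of 18348 genes tested with edgeR's quasi-likelihood test, 493 were higher and 181 lower in circEZH2_005 samples at a Benjamini-Hochberg adjusted p-value under 0.05. Vector sample 2 stood nearer to the circEZH2_005 samples than the other vector samples did. Across genes, which are not independent replicates, its log2 CPM correlated with theirs at 0.965 to 0.971, against 0.951 to 0.964 for vector samples 1 and 3. The labelled cells were checked by markers: the epithelial gene Epcam had between 96199 and 120407 counts in every sample (log2 fold change 0.16, adjusted p = 0.360 by edgeR), while the stem cell gene Lgr5 had 901 to 1436 counts in vector and 552 to 680 in circEZH2_005 samples (log2 fold change -0.88, adjusted p = 0.0434 by edgeR). In bulk samples like these, fewer cells of a type and less RNA per cell cannot be told apart.

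Dusp6 was the most abundant of the 10 genes in both groups, and Dusp1, Dusp6 and Dusp10 rose with circEZH2_005, by 2.49, 2.26 and 2.00 times. No member of the set fell by the same test. The 3 called genes are 3 of the 10, where 2.69% of all genes tested were called higher and 0.986% lower. At an unadjusted p-value under 0.05, Spred2 and Dusp5 joined them, giving 5 higher and 0 lower, beside 14.0% and 9.72% of all genes. With a fold change over 2 as well, Dusp1 and Dusp6 passed (2 higher, 0 lower, beside 6.22% higher and, for a fold change under 0.5, 1.34% lower among all genes). DESeq2 called 4 higher and 0 lower, adding Spred2, but it also called 8.96% of all genes higher and 4.61% lower. In 6 of the 10 genes every circEZH2_005 sample lay above every vector sample on the CPM scale and in 1, Spry4, below, where 16.4% and 14.2% of all genes did so. The median log2 fold change of the 10 genes was 0.32, with 6 of 10 positive, beside a median of 0.00 over all genes tested. The genes were chosen with earlier results of these data known, so these counts are a description.

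**Figure D1:**
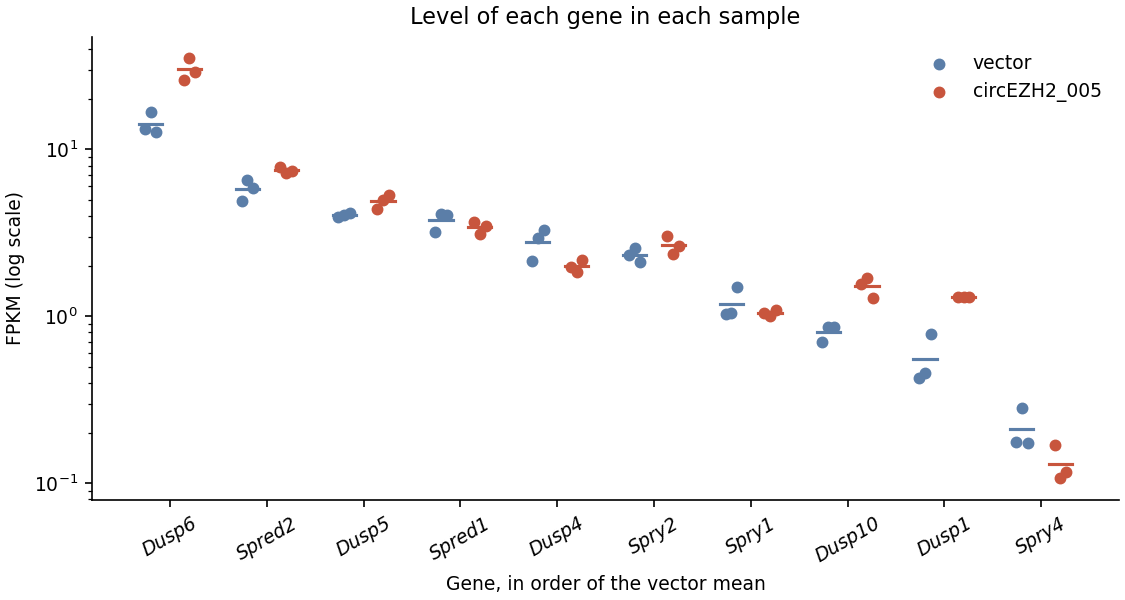
The FPKM of each gene (log scale) in each vector sample (blue, n = 3) and circEZH2_005 sample (red, n = 3), with a bar at the group mean and genes in the order of the vector mean. Dusp6 stands highest in both groups, at 14.3 and 30.2 FPKM, and the groups separate most for Dusp6, Dusp10 and Dusp1.

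Per unit of length the genes covered a wide range of levels. Dusp6 had a mean of 14.3 ± 2.19 FPKM (SD, n = 3) in vector samples and Spry4 of 0.212 ± 0.0626 FPKM. Over all 6 samples, Dusp6 lay above 92.6% of the genes in the table, Spred2 above 80.0% and Spry4 above 44.1%. The order in vector samples was Dusp6, Spred2, Dusp5, Spred1, Dusp4, Spry2, Spry1, Dusp10, Dusp1 and Spry4. The ranges of these neighbours overlapped for Dusp5 and Spred1, Spred1 and Dusp4, Dusp4 and Spry2, and Dusp10 and Dusp1, so their order is not settled by these samples. In circEZH2_005 samples Dusp10 and Dusp1 moved above Spry1, Spry2 moved above Dusp4, and only the ranges of Dusp10 and Dusp1 overlapped between neighbours.

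Dusp6 alone made up 41.2%, 42.3% and 36.0% of the summed FPKM of the 10 genes in the vector samples, and 50.9%, 60.0% and 53.8% in those with circEZH2_005. The summed FPKM of the other 9 genes was 18.9, 22.9 and 22.7 with the vector and 25.0, 23.7 and 24.9 with circEZH2_005. Most of the FPKM gained by the set was that of Dusp6.

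Among the phosphatases of the nucleus, Dusp1 rose and the other 2 were not called. Dusp1 (chr17:26505590-26562128, minus strand), also known as MKP-1, is an immediate early gene whose product acts mainly on p38 and JNK. Vector samples 1 to 3 held 113, 122 and 219 of its reads, and circEZH2_005 samples 1 to 3 held 369, 388 and 366. On the CPM scale these were 1.56, 1.63 and 2.80 against 4.64, 5.21 and 5.11. Every circEZH2_005 sample lay above every vector sample, and vector sample 3 lay well above the other 2. This gave a log2 fold change of 1.32 (SE 0.26, 95% interval 0.71 to 1.93), with an adjusted p = 0.0433 by edgeR. This call was lost when any 1 of the 6 samples was left out (adjusted p between 0.0516 and 0.157 by edgeR), while the log2 fold change stayed between 1.17 and 1.64. The gene's annotated interval runs far upstream of its RefSeq start and shares 640 bases with Ergic1 on the other strand (4406 to 6535 counts, log2 fold change -0.28, adjusted p = 0.163 by edgeR). It also holds the pseudogene Gm8225 on the other strand, which shares 956 bases and had 132 to 153 counts (log2 fold change 0.04, adjusted p = 0.939 by edgeR), and AC122252.1 and AC122252.4 on the same strand, with no value here. No source says whether strand was used in counting, so reads in the shared stretches cannot be told apart.

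Dusp4 (chr8:34807297-34819894, plus strand), or MKP-2, acts on ERK and JNK in the nucleus. Its CPM was 6.49, 8.57 and 9.68 with the vector and 5.85, 6.05 and 7.02 with circEZH2_005. The groups overlapped, with vector sample 1 among the circEZH2_005 samples. It had a log2 fold change of -0.39 (SE 0.19, 95% interval -0.82 to 0.05, adjusted p = 0.260 by edgeR), opposite in sign to Dusp1.

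Dusp5 (chr19:53529109-53542431, plus strand) is a nuclear phosphatase specific to ERK and a well-known target of serum response factor. Its CPM was 10.7, 10.8 and 11.1 with the vector and 11.6, 14.8 and 15.7 with circEZH2_005. The groups did not overlap, although circEZH2_005 sample 1 lay close to vector sample 3. Its log2 fold change of 0.37 (SE 0.14, 95% interval 0.04 to 0.70) missed the threshold after adjustment (adjusted p = 0.171 by edgeR). An antisense gene over its start had 0 to 14 counts in any sample.

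Dusp6 (chr10:99263231-99267489, plus strand), or MKP-3, is a phosphatase of the cytoplasm that is specific to ERK, and its RNA is widely used as a readout of ERK activity. Vector samples held 3301, 4199 and 3391 of its reads and circEZH2_005 samples 6936, 9907 and 7695. The CPM was 45.6, 56.2 and 43.3 against 87.2, 133 and 107. The groups were well apart, vector sample 2 being the highest of its group and circEZH2_005 sample 2 the highest of all. The mean FPKM went from 14.3 ± 2.19 to 30.2 ± 4.84 (SD, n = 3 each). The difference was 1.18 on the log2 scale (SE 0.17, 95% interval 0.78 to 1.57), with an adjusted p = 0.0214 by edgeR, and Dusp6 had the smallest p-value of the 10 genes, at rank 123 of all genes tested. No other annotated gene overlaps it. Leaving out vector sample 1 or 3 or circEZH2_005 sample 2 or 3 ended the call (adjusted p = 0.106, 0.111, 0.0649 and 0.0571 by edgeR), while the log2 fold change kept between 1.01 and 1.31.

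Dusp10 (chr1:184013302-184075636, plus strand), or MKP-5, acts on JNK and p38 and is found in the cytoplasm as well as the nucleus. Vector samples held 170, 209 and 222 of its reads and circEZH2_005 samples 404, 463 and 334. The CPM was 2.35, 2.80 and 2.84 against 5.08, 6.22 and 4.66. Every circEZH2_005 sample lay above every vector sample. Its log2 fold change was 1.00 (SE 0.19, 95% interval 0.55 to 1.45), just under a doubling, with an adjusted p = 0.0402 by edgeR. The call held when vector sample 2 was left out (adjusted p = 0.0353 by edgeR) and was lost when any other sample was (adjusted p between 0.0612 and 0.157 by edgeR). A gene on the other strand inside its interval had 7 to 23 counts.

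**Figure D2:**
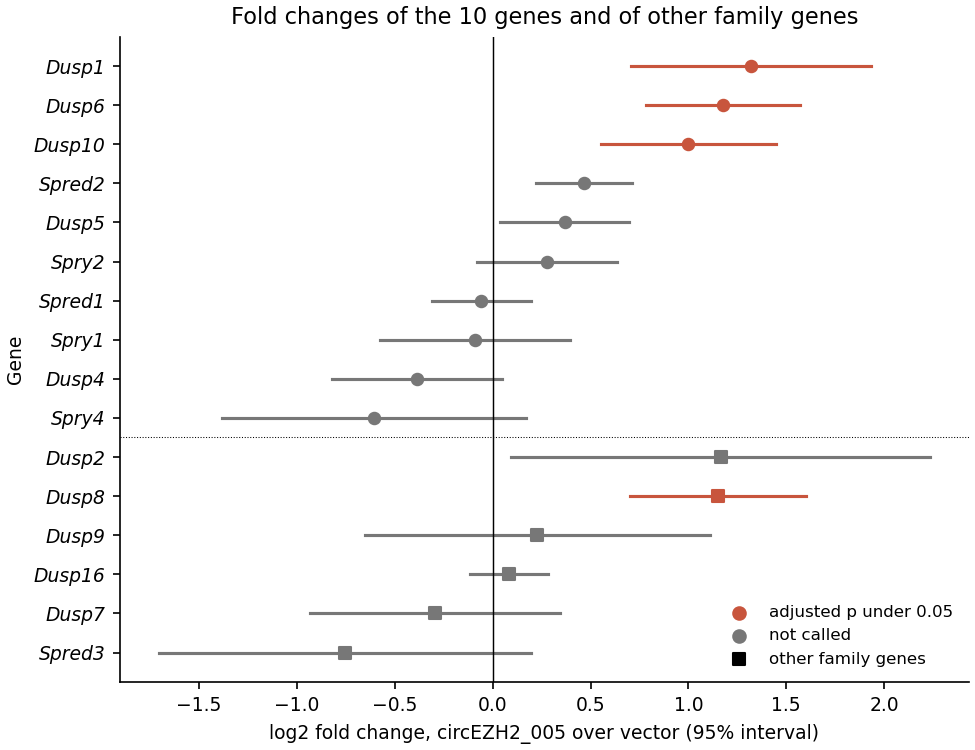
The log2 fold change of circEZH2_005 over vector samples (edgeR, 3 against 3) with its 95% interval, for the 10 genes (circles, above the dotted line) and for the tested genes of the same families outside the set (squares), with adjusted p under 0.05 in red. Dusp1, Dusp6, Dusp10 and Dusp8 lie wholly above 0.5, whereas the intervals of the Sprouty genes include 0.

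None of the Sprouty genes, the inhibitors that bind Grb2 and Raf to restrain receptor signalling, passed the test in either direction (0 of 3 by edgeR at the adjusted or unadjusted threshold, and 0 by DESeq2). Spry1 (chr3:37639947-37644598, plus strand) had a CPM of 3.29, 3.25 and 4.68 with the vector and 3.26, 3.52 and 3.77 with circEZH2_005. The circEZH2_005 samples lay within the vector range, whose upper end was vector sample 3. Its log2 fold change was -0.09 (SE 0.21, 95% interval -0.58 to 0.40, adjusted p = 0.844 by edgeR), and it became 0.10 without vector sample 3.

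Spry2 (chr14:105891947-105896819, minus strand) had a CPM of 5.33, 5.72 and 4.77 with the vector and 6.77, 5.94 and 6.46 with circEZH2_005. The groups did not overlap, by a narrow margin between vector sample 2 and circEZH2_005 sample 2. On the log2 scale the difference was 0.28 (SE 0.15, 95% interval -0.08 to 0.63, adjusted p = 0.323 by edgeR).

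Spry4 was the lowest of the set, with 67, 108 and 70 counts with the vector and 69, 46 and 47 with circEZH2_005. Its CPM was 0.93, 1.45 and 0.89 against 0.87, 0.62 and 0.66, so that all circEZH2_005 samples lay lower, sample 1 only just. It had a log2 fold change of -0.61 (SE 0.33), and the 95% interval, from -1.38 to 0.17, was the widest of the 10 genes (adjusted p = 0.323 by edgeR).

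The Spred genes, whose products bring the Ras inhibitor neurofibromin to the membrane, gave no call by edgeR. Spred1 (chr2:117121374-117182279, plus strand) had a CPM of 24.0, 29.5 and 29.6 with the vector and 26.7, 25.4 and 27.7 with circEZH2_005. The circEZH2_005 samples lay within the vector range. Spred1 had a log2 fold change of -0.06 (SE 0.11, adjusted p = 0.799 by edgeR), and its 95% interval, -0.31 to 0.19, was the second narrowest of the set.

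Spred2 (chr11:19924375-20024026, plus strand) had a CPM of 25.1, 32.5 and 29.1 with the vector and 39.1, 40.0 and 40.7 with circEZH2_005. The circEZH2_005 samples lay close together and above all vector samples, of which sample 2 was again the highest. Spred2 had a log2 fold change of 0.47 (SE 0.11, 95% interval 0.22 to 0.71), with an adjusted p = 0.0566 by edgeR, which misses the threshold. It passed by DESeq2 (adjusted p = 0.00599) and, by edgeR, without vector sample 2 (adjusted p = 0.0200). The intervals of Spred1 and Spred2 do not overlap, but the difference between their fold changes was not tested.

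**Figure D3:**
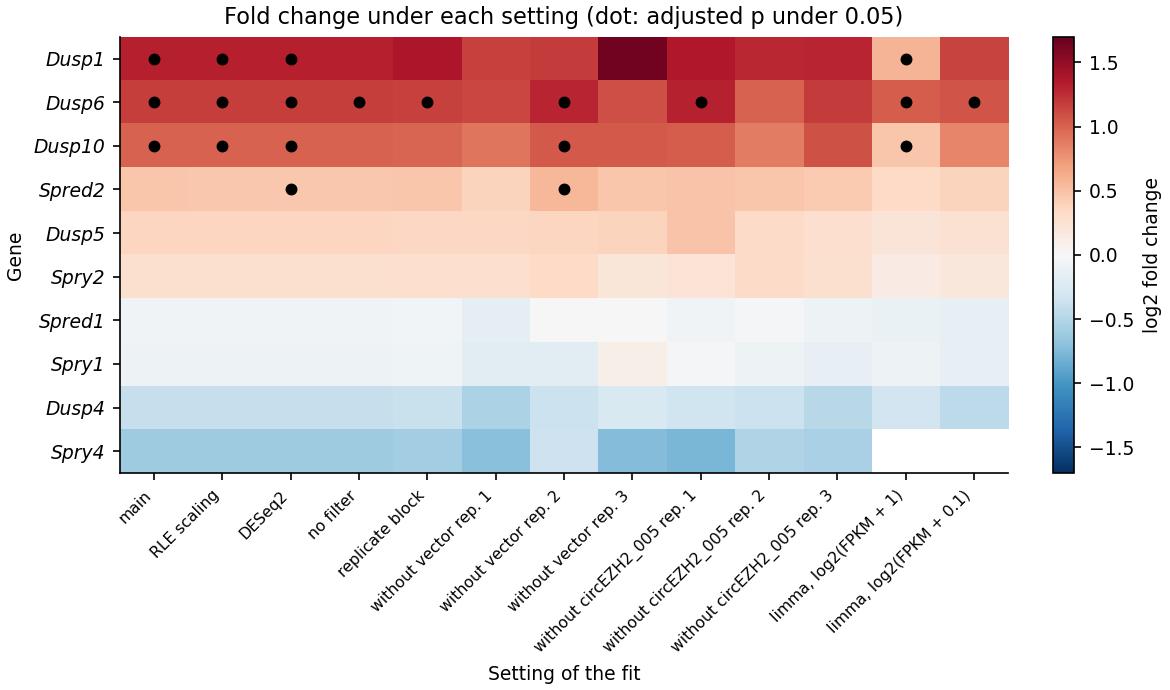
The log2 fold change of each of the 10 genes (colour) under each setting of the fit, with a dot where the adjusted p-value was under 0.05 and white where no value was given. Dusp1, Dusp6 and Dusp10 are red in every column, and Dusp6 carries the most dots, in 8 of the 12 alternatives.

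Across the 6 samples, Dusp10 and Spred2 followed Dusp6 most closely of the set. Pearson's r of log2 CPM with Dusp6 was 0.95 for Dusp10, 0.92 for Spred2, 0.87 for Dusp5, 0.85 for Dusp1 and 0.76 for Spry2. It was negative for Spred1 (-0.22), Spry1 (-0.24), Dusp4 (-0.64) and Spry4 (-0.69). Many genes outside the set were closer to Dusp6. By r, Dusp10 ranked 387, Spred2 840, Dusp5 1432 and Dusp1 1783 among all genes tested. Among all other genes tested, the 3 most like Dusp6 were Mxd1 (r = 0.998, a MAX dimerization protein that opposes Myc), Aplp1 (r = 0.998, an amyloid precursor-like protein) and Tle3 (r = 0.997, a Groucho-type corepressor). All 3 were higher in circEZH2_005 samples, by log2 fold changes of 1.37, 1.51 and 0.84 (adjusted p = 0.0263, 0.0240 and 0.0263 by edgeR). With 6 samples in 2 groups, such an r is set largely by the difference between the groups and is given as a description.

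The other genes of the same families gave 1 call. Of 6 tested, 1 was higher and 0 lower by edgeR at the adjusted threshold, beside 2.69% and 0.986% of all genes. At an unadjusted p-value under 0.05, 2 were higher and 0 lower, beside 14.0% and 9.72% of all genes. Spry3 was not analysed here. Dusp8, a phosphatase of JNK and p38, went from 6.98 ± 0.460 to 15.5 ± 3.99 CPM (SD, n = 3 each), which is a difference of 1.15 on the log2 scale (SE 0.19, adjusted p = 0.0301 by edgeR). Dusp2, known from immune cells, had a log2 fold change of 1.16 at low counts of 28 to 147 (SE 0.46, adjusted p = 0.179 by edgeR), and the groups overlapped. Spred3 had the lowest, at -0.76 (SE 0.41, adjusted p = 0.314 by edgeR).

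The cascade these proteins restrain gave no call at the adjusted threshold, but most of its genes had a positive log2 fold change. From receptor adaptors to ERK, edgeR called 0 of 17 genes tested in either direction, beside 2.69% higher and 0.986% lower among all genes. At an unadjusted p-value under 0.05, 6 were higher and 0 lower, beside 14.0% and 9.72%. DESeq2 called 1 higher and 0 lower, beside 8.96% and 4.61%. In 8 of 17 every circEZH2_005 CPM lay above every vector CPM, and in 0 below, beside 16.4% and 14.2% of all genes. These shares of all genes also apply to the lists that follow. Of the 17 genes, 13 had a positive log2 fold change, beside 9174 of all 18348 tested. Their median log2 fold change was 0.14, within a range from -0.15 for Araf, a Raf kinase, to 0.38 for Ksr1, the scaffold of the cascade (adjusted p = 0.357 and 0.123 by edgeR). Mapk3, an ERK gene, had a log2 fold change of 0.30 (SE 0.11), and the MEK genes of 0.24 for Map2k1 (SE 0.10) and 0.17 for Map2k2 (SE 0.11), with adjusted p-values of 0.144, 0.199 and 0.396 by edgeR.

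Among the kinases of the JNK and p38 branches, 0 of 13 genes tested were called by edgeR, 3 were higher and 1 lower at an unadjusted p-value under 0.05, and DESeq2 called 2 higher and 1 lower. The median log2 fold change was 0.06. The extremes, Mapk10 (0.51, SE 0.66) and Mapk11 (-0.54, SE 1.03), both had at most 41 counts in a sample, with adjusted p-values of 0.698 and 0.801 by edgeR.

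Genes commonly read as the output of ERK were mixed. Of 10 tested, 1 was called higher and 0 lower by edgeR, 3 were higher and 0 lower at an unadjusted p-value under 0.05, and DESeq2 called 3 higher and 0 lower, with a median log2 fold change of 0.22. The called gene was Ccnd1 (cyclin D1, which drives entry into S phase), with 165 ± 21.8 CPM in vector and 243 ± 10.2 CPM in circEZH2_005 samples (SD, n = 3 each) and a log2 fold change of 0.56 (SE 0.11, adjusted p = 0.0412 by edgeR). Fos, an immediate early gene, had the highest log2 fold change at 1.07 (SE 0.24), with an adjusted p = 0.0566 by edgeR. Egr1, an immediate early gene like Dusp1, had the lowest at -0.23 (SE 0.34, adjusted p = 0.736 by edgeR), with overlapping groups. Fosl1 did not pass the filter on low counts.

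Of 10 other inhibitors of receptors and Ras, 0 were called by edgeR, 3 were higher and 2 lower at an unadjusted p-value under 0.05, and DESeq2 called 2 higher and 2 lower, with a median log2 fold change of 0.13. The range ran from -0.77 for Il17rd (SE 0.26, adjusted p = 0.127 by edgeR), a membrane inhibitor of fibroblast growth factor signalling also called Sef, to 0.49 for Cblb (SE 0.15, adjusted p = 0.105 by edgeR), a ubiquitin ligase of receptors.

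**Figure D4:**
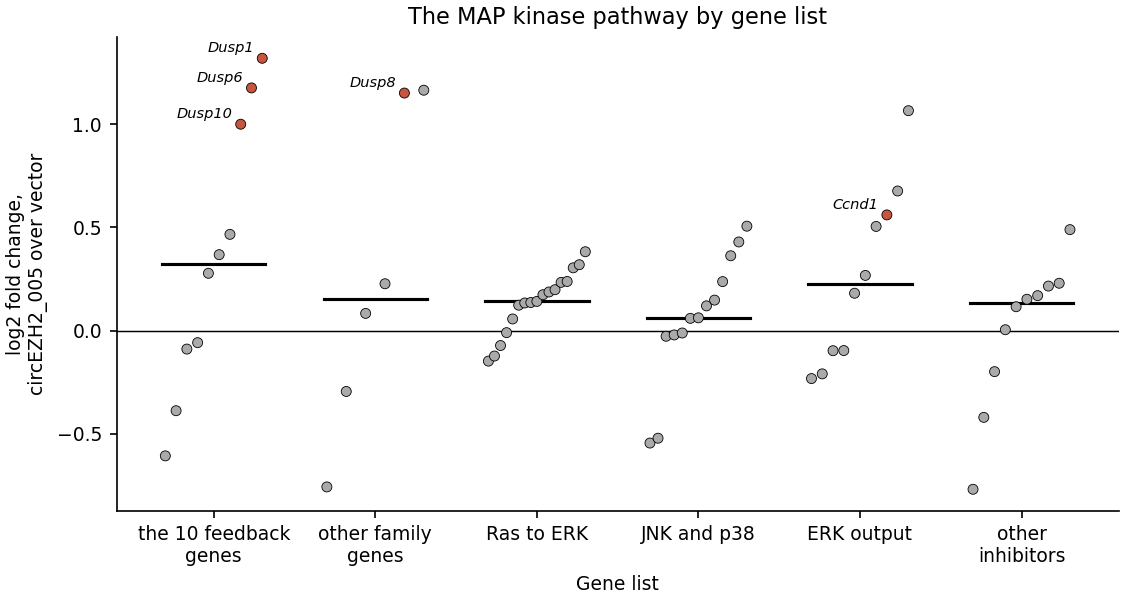
The log2 fold change of circEZH2_005 over vector samples (edgeR) for every tested gene of each list, with the list's median as a bar and adjusted p under 0.05 in red with the gene's name. The called genes are Dusp1, Dusp6 and Dusp10 of the 10 feedback genes, Dusp8 of the other family genes and Ccnd1 of the ERK output genes.

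Marker genes of cell types were read in the same samples. The 12 leukocyte markers summed to 63.1, 157 and 79.9 CPM with the vector and to 338, 258 and 206 CPM with circEZH2_005 (samples 1 to 3), without overlap. All 12 had a positive log2 fold change, 4 with an unadjusted p-value under 0.05 and 0 with an adjusted one by edgeR (3 by DESeq2), and none was at 0 in any sample. The 4 were Ptprc, Cd3e, Cd3g and Cd79b, and each of the others overlapped between the groups, the myeloid genes among them. Ptprc alone had 22.8, 78.6 and 31.9 CPM with the vector and 185, 140 and 103 CPM with circEZH2_005. The 7 epithelial markers summed to between 7638 and 8030.2 CPM in vector and between 9223 and 11524 CPM in circEZH2_005 samples, also without overlap. The 8 stromal markers summed to between 7.68 and 8.50 and between 3.91 and 10.8 CPM. The 5 endothelial markers summed to between 1.17 and 2.44 and between 4.15 and 6.05 CPM, without overlap. By edgeR's adjusted p-value, 2 of the 6 crypt stem cell markers fell and 0 rose (Lgr5, given above, and Smoc2, log2 fold change -0.81, adjusted p = 0.0203). Ascl2 was lower without overlap or a call (-0.68, adjusted p = 0.0921 by edgeR). Olfm4, Sox9 and Axin2 overlapped between the groups, and Axin2 had a positive log2 fold change (0.31, adjusted p = 0.219 by edgeR). The sums of the 6 overlapped, at 1637, 2497 and 1714 CPM with the vector and 1540, 1140 and 1711 with circEZH2_005. In the same test 1 epithelial marker rose (Krt8, 0.57, adjusted p = 0.0301), as did 1 of the 2 endothelial markers tested (Pecam1, 1.93, adjusted p = 0.0377, with 46 to 97 counts in vector and 183 to 415 in circEZH2_005 samples), and 0 of the 8 stromal markers were called (also 0 at an unadjusted p-value under 0.05 and by DESeq2). All 7 epithelial markers had a positive log2 fold change, 4 with an unadjusted p-value under 0.05 by edgeR, and DESeq2 called 3 higher. In 5 of these 7 every circEZH2_005 CPM lay above every vector CPM, beside 16.4% of all genes. The study's methods describe sorting of Lgr5-GFP+ cells by flow cytometry before organoid growth. The part of these cell types in the values of Dusp1, Dusp6, Dusp10 and Spred2 was not tested.

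The values of the same samples stand side by side as follows. Among vector samples, sample 2 had the highest leukocyte sum and the highest Dusp6 and Spred2, while Dusp1 and Dusp10 were highest in sample 3 (2.80 and 2.84 CPM). Among circEZH2_005 samples, sample 1 had the highest leukocyte sum and the lowest Dusp6, Dusp1 and Spred2, while Dusp10 was lowest in sample 3 (4.66 CPM). With 3 samples in each group, a relation of these genes to the leukocyte sum was not tested. Between the samples of the 2 groups that were closest in leukocyte sum, vector sample 2 (157 CPM) and circEZH2_005 sample 3 (206 CPM), Dusp6 stood at 56.2 and 107 CPM, Dusp1 at 1.63 and 5.11, Dusp10 at 2.80 and 4.66, and Spred2 at 32.5 and 40.7. Per 1000 Epcam counts of the same library, a ratio added after the values had been seen, Dusp6 had 32.9 to 43.6 counts in vector and 64.7 to 82.3 in circEZH2_005 samples. Dusp1 had 1.14 to 2.13 and 3.22 to 3.46, and Dusp10 had 1.72 to 2.17 and 3.15 to 3.85, all without overlap. Spred2, at 18.4 to 25.2 and 24.7 to 29.0, did overlap on this scale. Epcam itself differed little between the groups (log2 fold change 0.16), so this ratio largely repeats the CPM values. It does not separate the reads of different cell types.

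**Figure D5:**
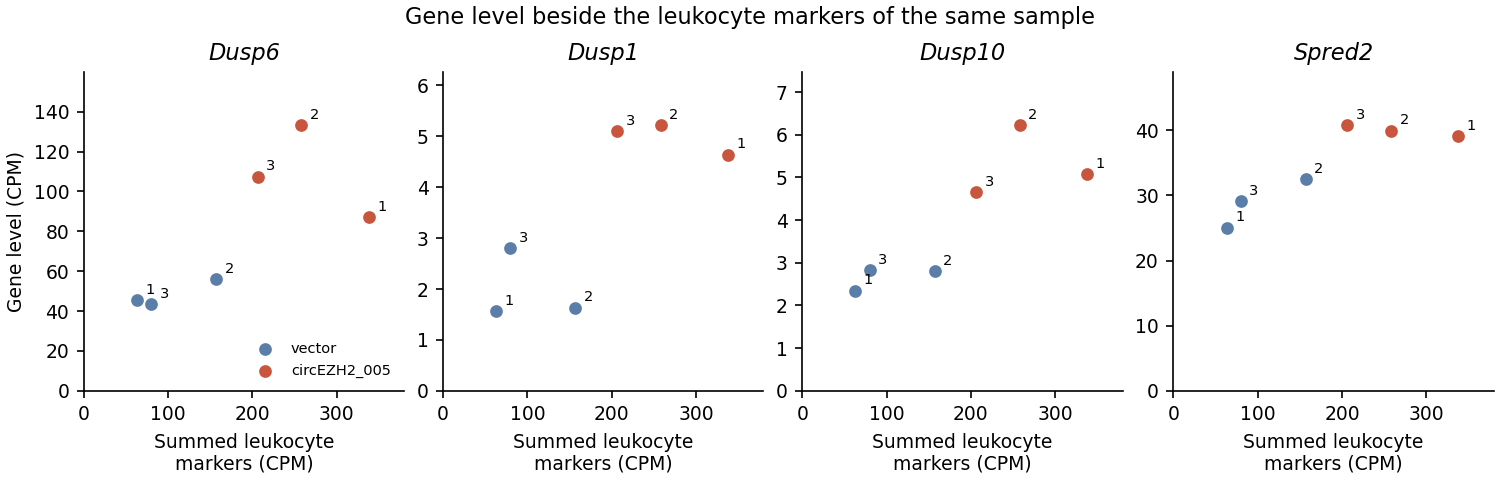
The CPM of Dusp6, Dusp1, Dusp10 and Spred2 against the summed CPM of 12 leukocyte markers in the same sample, with vector samples 1 to 3 in blue and circEZH2_005 samples 1 to 3 in red. The leukocyte sums run from 63.1 to 157 CPM in vector and from 206 to 338 CPM in circEZH2_005 samples. The highest sum goes with the highest Dusp6 and Spred2 among vector samples and with the lowest Dusp6, Dusp1 and Spred2 among circEZH2_005 samples. Dusp1 and Dusp10 are highest in sample 3 among vector samples, and Dusp10 is lowest in sample 3 among circEZH2_005 samples.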

How the data were processed

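RNA of 6 organoid samples had been selected with oligo(dT) beads and sequenced. The authors deposited, for each of 28752 genes and each sample, a read count without normalization and an FPKM value scaled for gene length and library size. Per the submitters' processing notes, cutadapt 1.9, HISAT2 2.0.4, StringTie 1.3.4d and DESeq2 were used with mm10. The annotation, the counter and its strand setting are not given in the sources used here. The control columns of the table are named as a negative control and were taken as the vector samples of the same number, and 0 sample columns were left unused. The authors' own fold changes and p-values were not used.

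Counts were filtered with filterByExpr, scaled with TMM and compared by edgeR 4.0.16 (quasi-likelihood, R 4.3.3), 3 samples against 3 and without covariates. Adjusted p-values are Benjamini-Hochberg over the 18348 genes tested, and standard errors were obtained from the log2 fold change and its F statistic (ratio to the root of F). The fit was tested on simulated data. Alternatives were median-of-ratios scaling, DESeq2 1.42.0, no filter, a replicate block, each sample left out, a fold change rule, and limma 3.58.1 on log2(FPKM + 1) or log2(FPKM + 0.1) for genes averaging 0.5 FPKM or more. The lowest of the 10 genes, Spry4, had 46 to 108 counts.

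The 10 genes and all lists were chosen with earlier results of these data known. Named are all 10 genes, from each pathway list the highest and lowest gene by log2 fold change and those called, Mapk3, Map2k1 and Map2k2, the 3 genes most correlated with the member of smallest p-value, and Lgr5 and Epcam. An item under this rule is not reported here. Genes that overlap a member are named where their reads could matter. The called marker genes Krt8, Smoc2 and Pecam1, and the uncalled Ascl2, Olfm4, Sox9, Axin2, Ptprc, Cd3e, Cd3g and Cd79b, were named after their values were seen. Positions were the same in the table and in GENCODE M21 (GRCm38) for all 10 genes. Promoters come from RefSeq (GRCm38.p6, 8 of 10 genes read) and 3′ sites from GENCODE M21.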

Additional observations from a re-analysis of the deposited data

How the results depend on the processing

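Of the 10 genes, 3 were called higher, and this became 1 without the count filter, 1 with the replicate block, 1 with limma on log2(FPKM + 0.1) and 0 to 3 with a sample left out (0 without vector sample 1 or 3 or circEZH2_005 sample 2 or 3). Dusp1 had a log2 fold change of 1.32 (adjusted p = 0.0824, edgeR) without the filter and 1.14 (adjusted p = 0.0501) with that limma fit, and Dusp10 of 1.00 (adjusted p = 0.0745, edgeR) and 0.83 (adjusted p = 0.0501). With limma on log2(FPKM + 1), a scale that shrinks low genes, the values were 0.58 for Dusp1 and 0.48 for Dusp10 (adjusted p = 0.0433 and 0.0493). Leaving out a sample gave log2 fold changes of 1.17 to 1.64 for Dusp1, 1.01 to 1.31 for Dusp6, 0.87 to 1.09 for Dusp10, 0.37 to 0.56 for Spred2 and -0.18 to 0.10 for Spry1. Spred2 passed with DESeq2 (0.46, adjusted p = 0.00599). No value of Spry4 came from limma, as its mean was under 0.5 FPKM. The other family genes called higher went from 1 to 0 without the filter, 2 by the fold change rule and 0 to 1 with a sample left out. DESeq2 called 1 higher Ras-ERK gene, 2 higher and 1 lower JNK or p38 genes, 3 higher ERK output genes and 2 higher and 2 lower other inhibitors. Either limma fit called 1 lower JNK or p38 gene. ERK output calls fell to 0 without the filter and in both limma fits and lay between 0 and 2 with a sample left out, where other inhibitors had 0 to 2 lower calls. Over all genes, higher and lower calls were 1644 and 846 by DESeq2, 132 and 37 without the filter, 323 and 319 with limma on log2(FPKM + 0.1) and 364 lower with limma on log2(FPKM + 1), and 1142 were higher by the fold change rule. With a sample left out they were 26 to 1098 and 2 to 334, the fewest without vector sample 1 and the most without vector sample 2. Median-of-ratios scaling changed no call of a member.

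The groups share replicate numbers, but same-numbered samples did not deviate together (correlations of -0.14, -0.02 and 0.04, and 1 of 3 highest with its own number), so the numbers are not taken as a pairing. With the replicate block, Dusp1 had a log2 fold change of 1.37 (adjusted p = 0.0646, edgeR), Dusp10 of 0.99 (adjusted p = 0.0805) and Dusp6 of 1.16 (adjusted p = 0.0181). Calls with the block were 1 of the 10 genes, 0 other family genes, 0 ERK output genes, and 241 higher and 36 lower over all genes.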
